A study of Homo sapiens with 4 samples.

Results

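The aldo-keto reductases of the AKR1B and AKR1C subfamilies were examined on 4 expression arrays of parental and cisplatin-resistant head and neck squamous cell carcinoma (HNSCC) cells. The members were chosen by name with their differences between resistant and parental cells already known, so every value of that contrast is a description and no test was made. Of the 7 genes listed (AKR1B1, AKR1B10, AKR1B15, AKR1C1, AKR1C2, AKR1C3 and AKR1C4), 6 carried a probe under their own gene name, with 10 probes between them, out of 43305 genes with values. AKR1C2 had no probe under its name and was not analysed here.

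The parental cells, HN4 and HN30, are human lines long in culture that were grown without the drug. HN4/DDP and HN30/DDP, called HN4_CR and HN30_CR in the sample labels, are their descendants, selected with rising doses of the platinum compound cisplatin, which forms DNA adducts. The paper states that the resistant cells were maintained with 20 μM cisplatin in the medium, while the sample labels give 20 μM for 48 h. Which of these exposures the arrays reflect is not known. In either case resistance and the presence of the drug cannot be told apart. Each group was measured with 1 single-colour Agilent array (Cy3, total RNA), and no resistant cells without cisplatin were measured here.

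Aldo-keto reductases use NADPH to reduce aldehydes and ketones to alcohols. The AKR1B enzymes are aldose reductases and their relatives, which act on glucose, on lipid aldehydes and, for AKR1B10, on retinal. The AKR1C enzymes are hydroxysteroid dehydrogenases that interconvert ketosteroids and hydroxysteroids, and AKR1C3 also makes prostaglandins of the F series. Several of these genes are known targets of NRF2, a transcription factor of the response to oxidants and electrophiles that KEAP1 holds at a low level in unstressed cells. Their enzymes are also known for reducing drugs and reactive carbonyls in epithelial tumours.

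Levels are given as log2 of the background-subtracted signal minus the 75th percentile of the array, so a level of 0 is as bright as that percentile. In the order HN4, HN4/DDP, HN30, HN30/DDP, that percentile was a signal of 494, 496, 444 and 480. Spots that the scanner software marks as well above background made up 57.2%, 59.0%, 55.3% and 63.6% of each array. A gene was counted as higher or lower when its log2 difference passed 2 in size, which is 4-fold, and its probe was well above background on the brighter array. With 1 array per group no difference has a replicate check. The scanner SD beside a difference is made from the error that the scanner software gives each spot and leaves out variation between cultures. Where the dimmer signal was not well above background, the higher of that signal and the lowest signal well above background on its array took its place, and the fold is given as "at least". In these bulk samples fewer cells of a type and less RNA per cell cannot be told apart.

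The label of squamous carcinoma was set against its defining markers. All 10 squamous markers, KRT5, KRT14, KRT6A, TP63, SFN, DSG3, DSC3, CDH1, EPCAM and PERP, were well above background in HN4, HN4/DDP and HN30, and 9 of them in HN30/DDP, where the keratin KRT6A was not. In HN4/DDP 4 of these 10 passed the threshold, the keratins KRT6A (3.32), KRT14 (2.33) and KRT5 (-4.05) and the desmosomal DSC3 (-2.95). In HN30/DDP KRT6A alone passed it (-8.44, at least 183-fold). Over all genes measured 3.61% were higher and 2.2% lower in HN4/DDP, and 8.37% and 2.75% in HN30/DDP. Of 6 fibroblast markers, 2 (COL1A1 and PDGFRB) were well above background on each array, and of 4 endothelial markers 2, or 3 in HN30/DDP. Past the threshold were COL1A1 in HN30/DDP (2.43) and, in HN4/DDP, VWF (2.43, at least 5.37-fold) and PECAM1 (-2.88, at least 2.05-fold). With normexp none of the 3 passed, and the part of such markers in the members' values was not tested. Of the 3 leukocyte markers found, PTPRC was well above background on each array, and CD3E in HN30/DDP alone. Of 4 hepatocyte markers, listed because AKR1C4 is known from liver, APOA1 and SERPINA1 were well above background on each array, while ALB and TTR were not on any of the 4.

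AKR1B1, the aldose reductase that turns glucose into sorbitol in the polyol pathway, was bright on every array. Its level was 6.53 in HN4 and 4.94 in HN4/DDP, and 5.52 in HN30 and 5.66 in HN30/DDP. HN4 was the brightest of the 4 arrays and HN4/DDP the dimmest, and the 2 HN30 arrays lay between them, 0.14 apart against a scanner SD of 0.20. The difference was -1.58 in HN4/DDP (scanner SD 0.20), a level 2.99-fold lower that did not pass the threshold of 2. In HN30/DDP it was 0.14 (scanner SD 0.20), and it turned to -0.28 when the arrays were scaled to their medians. The probe lies on the minus strand of chromosome 7 in hg19, from 134130061 to 134132097, and crosses an intron.

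AKR1B10, which reduces retinal and lipid aldehydes and in health is mainly an enzyme of the gut epithelium, was faint in the parental cells and far brighter in both resistant ones. By the first of its 2 probes the level was -4.67 in HN4 and 0.91 in HN4/DDP, then -5.19 in HN30 and 0.56 in HN30/DDP. The HN30 signal was not well above background. The difference was 5.58 in HN4/DDP (scanner SD 0.34), which is 47.7-fold, and 5.76 in HN30/DDP (scanner SD 0.47), at least 36.5-fold. The second probe, 140 bases further along the chromosome, read -4.46, 0.73, -5.64 and -0.28 in the same order. It gave differences of 5.19, which is 36.5-fold, and 5.36, at least 20.3-fold. With the normexp background correction the gene's differences were 3.55 and 3.28, which are smaller folds than these. The probes lie on the plus strand of chromosome 7 in hg19, at chr7:134225799-134225858 and chr7:134225939-134225998.

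AKR1B15, a close relative of AKR1B10 encoded beside it, was well above background on every array and showed the same pattern. Its level was -3.98 in HN4 and 1.00 in HN4/DDP, and -4.19 in HN30 and 1.24 in HN30/DDP. The difference was 4.98 in HN4/DDP (scanner SD 0.27), 31.6-fold, and 5.43 in HN30/DDP (scanner SD 0.30), 43.1-fold, or 3.47 and 3.61 with the normexp background correction. The levels of the 2 parental arrays differed by -0.21 (HN30 minus HN4) against a scanner SD of 0.34, and by 0.06 with that correction. The accessions that the array lists for its single probe, at most 4 per probe, include a transcript of AKR1B10, so the signals of the 2 genes may not be separate at this spot. The probe is shown for that reason, without capitals, as it lies on the plus strand at chr7:134262468-134262527 (hg19).
AKR1B15 probe: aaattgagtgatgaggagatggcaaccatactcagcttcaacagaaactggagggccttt

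**Figure D1:**
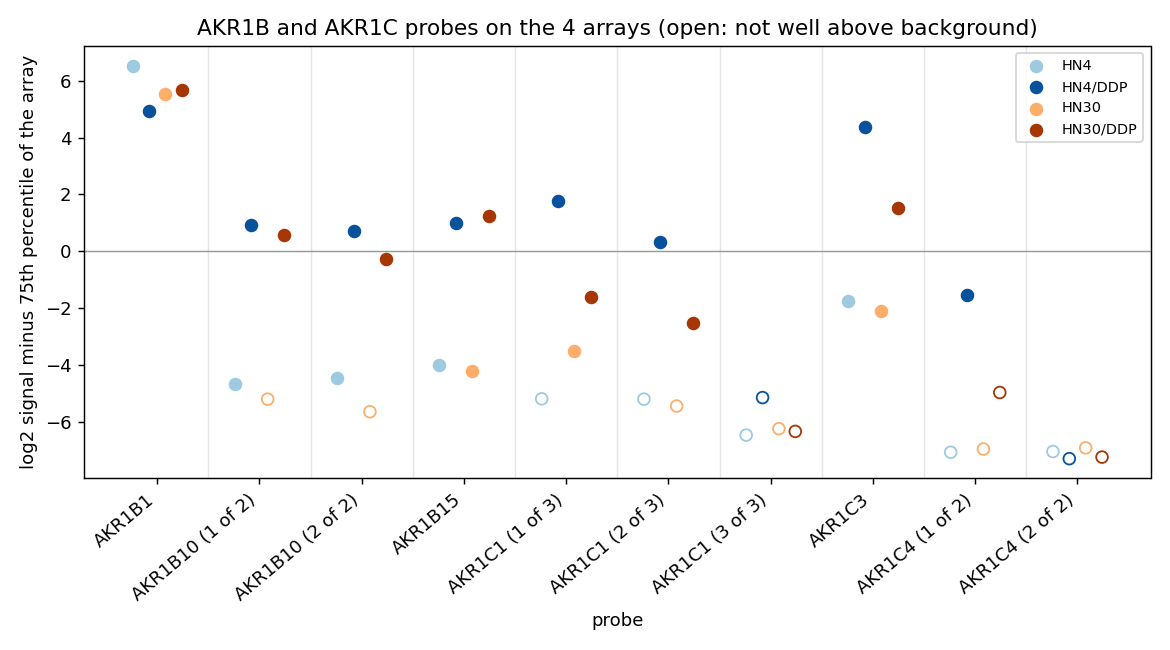
Level of each of the 10 AKR1B and AKR1C probes on the 4 arrays, as log2 signal minus the 75th percentile of the array (vertical axis), 1 point per array, with open points where the probe was not well above background; points are to be compared within a probe. AKR1B10 and AKR1B15 sit between -0.28 and 1.24 in both resistant lines and near or below -4 in both parental lines, AKR1C1, AKR1C3 and the first AKR1C4 probe are brightest in HN4/DDP, and AKR1B1 spans 4.94 to 6.53.

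AKR1C1, which inactivates progesterone, had the largest difference of the members in HN4/DDP, although AKR1C3 exceeded it with the normexp background correction, with a pseudocount of 16 and with the mean of all probes. By the first of its 3 probes the level was -5.18 in HN4, not well above background, and 1.77 in HN4/DDP, then -3.49 in HN30 and -1.62 in HN30/DDP. The difference was 6.96 in HN4/DDP (scanner SD 0.45), at least 92.8-fold. With normexp the gene's difference there was 4.46 and with the mean of all probes 4.59, which are smaller folds than that bound. In HN30/DDP the difference by the first probe was 1.87 (scanner SD 0.24), which is 3.65-fold and under the threshold. This probe lies near the end of the transcript, on the plus strand at chr10:5019910-5019969 (hg19).

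The second AKR1C1 probe starts 1 base before the first codon and gave another ratio of the lines. Its level was -5.19 in HN4 and 0.31 in HN4/DDP, and -5.44 in HN30 and -2.52 in HN30/DDP, and neither parental signal was well above background. The differences were 5.50 in HN4/DDP (scanner SD 0.45), at least 33.7-fold, and 2.92 in HN30/DDP (scanner SD 0.56), at least 4.31-fold, so by this probe AKR1C1 also passed the threshold in HN30/DDP. The third probe, of another transcript of the gene, was not well above background on any array, with levels from -6.46 to -5.14. AKR1C1 is represented in the counts by the first probe, the brightest of the 3.

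AKR1C2, which inactivates dihydrotestosterone, bears on how the second AKR1C1 probe is read. The accessions listed for that probe include an AKR1C2 transcript. The probe and the RefSeq windows around the starts of AKR1C1 and AKR1C2 are shown because they let the 2 genes be set side by side at this spot. The first 29 bases of the probe, in capitals, lie at the end of the AKR1C2 window with 28 matches and the substitution T16C, where the probe's base comes first and positions count from the probe's 5′ end. The first 21 bases lie at the end of the AKR1C1 window with 21 matches. The probe is on the plus strand at chr10:5005636-5005695 (hg19), and the windows, from 250 bases before to 50 bases after the start, are at chr10:4963165-4963464 on the plus strand and chr10:5003808-5004107 on the minus strand (GRCh38.p14). Capitals in the windows mark the bases at which the 2 genes differ, including 4 bases of AKR1C1 that face a gap.
AKR1C1 second probe: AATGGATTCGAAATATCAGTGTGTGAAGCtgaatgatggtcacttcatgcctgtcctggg
AKR1C1 window: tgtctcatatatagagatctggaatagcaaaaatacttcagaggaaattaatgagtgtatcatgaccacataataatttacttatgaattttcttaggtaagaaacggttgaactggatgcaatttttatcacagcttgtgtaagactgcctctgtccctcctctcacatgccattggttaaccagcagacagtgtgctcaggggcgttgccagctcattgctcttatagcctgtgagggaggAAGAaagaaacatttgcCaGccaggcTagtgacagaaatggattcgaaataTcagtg
AKR1C2 window: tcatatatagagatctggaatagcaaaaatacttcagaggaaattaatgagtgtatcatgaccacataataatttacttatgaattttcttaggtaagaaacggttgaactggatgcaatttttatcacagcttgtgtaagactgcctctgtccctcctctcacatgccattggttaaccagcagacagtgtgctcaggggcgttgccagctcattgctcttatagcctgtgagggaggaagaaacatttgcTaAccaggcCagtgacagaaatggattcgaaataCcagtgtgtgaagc

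Over 296 aligned columns the AKR1C1 and AKR1C2 windows were identical at 288 (97.3%), with 4 substitutions. The AKR1C1 window was identical to the 2 windows of AKR1C3 at 75.7% and 75% of the columns and to that of AKR1C4 at 62.1%. How much AKR1C2 transcript contributed to the second AKR1C1 signal was not tested. The levels given for AKR1C1 by that probe are therefore levels of the probe, which the 2 genes may share.

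AKR1C3, which reduces androstenedione to testosterone and prostaglandin precursors to the F series, was the only AKR1C member well above background on every array. Its level was -1.75 in HN4 and 4.38 in HN4/DDP, and -2.09 in HN30 and 1.54 in HN30/DDP. The order was HN4/DDP, HN30/DDP, HN4 and HN30, and only the last pair lay close together, -0.34 apart against a scanner SD of 0.21. The difference was 6.13 in HN4/DDP (scanner SD 0.21), 69.9-fold, and 3.63 in HN30/DDP (scanner SD 0.21), 12.3-fold. These differences had the smallest scanner SDs of the 5 members counted as higher. The result rests on 1 probe, shown without capitals, on the plus strand at chr10:5147789-5147848 (hg19).
AKR1C3 probe: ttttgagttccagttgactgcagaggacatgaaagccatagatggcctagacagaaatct

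AKR1C4, the hepatic member of the subfamily, which acts in steroid breakdown and bile acid synthesis, was read by 2 probes that disagreed. The first was not well above background in HN4 (-7.06), HN30 (-6.95) and HN30/DDP (-4.96), and was so in HN4/DDP, at -1.54. The difference in HN4/DDP was 5.52 with a scanner SD of 1.46, at least 9.33-fold, but 1.82 with the normexp background correction, which is under the threshold. In HN30/DDP both signals were dim, so no fold is given. The second probe was not well above background on any array, with levels from -7.29 to -6.91.

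The 2 AKR1C4 probes are shown because they share 29 bases, in capitals, and yet only the first gave a signal in HN4/DDP. The first lies on the plus strand at chr10:5246396-5246455 (hg19), within 1 stretch of the genome. The second starts 31 bases further along the transcript, spans chr10:5246427-5247749 and so crosses an intron after the shared bases. Whether transcripts of a relative, unspliced RNA or the probes themselves account for the gap of 5.77 between their differences in HN4/DDP was not tested.
AKR1C4 first probe: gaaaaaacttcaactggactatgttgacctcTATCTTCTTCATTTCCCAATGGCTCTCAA
AKR1C4 second probe: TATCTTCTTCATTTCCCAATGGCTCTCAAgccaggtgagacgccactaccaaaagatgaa

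By count, 5 of the 6 measured members passed the threshold upward in HN4/DDP (AKR1B10, AKR1B15, AKR1C1, AKR1C3 and AKR1C4), beside 3.61% of the 26853 genes measured there. With normexp AKR1C4 drops out and 4 remain, where 258 genes in all were higher instead of 970. None of the 6 was lower, beside 2.2% of genes. In HN30/DDP 3 of 5 members well above background on at least 1 array of the pair were higher (AKR1B10, AKR1B15 and AKR1C3), beside 8.37% of 28330 genes, and none of the 5 was lower, beside 2.75%. The genes higher and lower there were 2371 and 779 in all, 557 and 371 with normexp, and 1545 and 1532 with scaling to the median. Under both alternatives the same 3 members were higher. The 3 were higher in both lines, beside 1.16% of 25662 genes, and no member was lower in both, beside 0.136%. Since the members were picked from this contrast, nothing is read from these shares. AKR1B10 and AKR1B15 enter all these counts as separate members, although the AKR1B15 probe may carry the signal of both. Nearest to the threshold, AKR1C3 in HN30/DDP lay inside at 3.63, and AKR1C1 in the same line lay outside at 1.87. AKR1C4, dim on both arrays of that pair, could not be counted there, and its value of 1.98 was 0.23 with normexp. Under the requirement of a signal well above background on both arrays, 3 members remained higher in HN4/DDP (AKR1B10, AKR1B15 and AKR1C3), and 2 in HN30/DDP and in both lines (AKR1B15 and AKR1C3), while 388 and 1036 genes in all were higher in HN4/DDP and HN30/DDP.

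Among the 25525 genes well above background in HN4/DDP, ordered from the largest rise, AKR1C1 ranked 14, AKR1C3 27, AKR1B10 47, AKR1C4 50 and AKR1B15 73, and AKR1B1 ranked 24990. With dim parental signals at their bound the same ranks were 6, 11, 21, 192, 39 and 24990, so the place of AKR1C4 rests on a dim signal. Among the 27625 genes well above background in HN30/DDP, AKR1B10 ranked 37, AKR1B15 58, AKR1C3 479, AKR1C1 2657 and AKR1B1 13047, or 27, 17, 245, 1676 and 11732 at the bound. AKR1B10 and AKR1B15 thus had similar ranks in both lines, and AKR1C1 and AKR1C3 had smaller rank numbers in HN4/DDP than in HN30/DDP.

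The members differed in how the 2 lines compared. For the 3 members well above background on every array, the difference in HN4/DDP minus that in HN30/DDP was -0.45 for AKR1B15 (scanner SD 0.40), 2.50 for AKR1C3 (scanner SD 0.30) and -1.72 for AKR1B1 (scanner SD 0.29). By the first AKR1C1 probe, the at least 92.8-fold of HN4/DDP stands beside a measured 3.65-fold in HN30/DDP. For AKR1B10, for the second AKR1C1 probe and for AKR1C4 the size of the gap is not known, because a parental signal was dim in HN30. Without replicates no gap between the lines was tested.

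**Figure D2:**
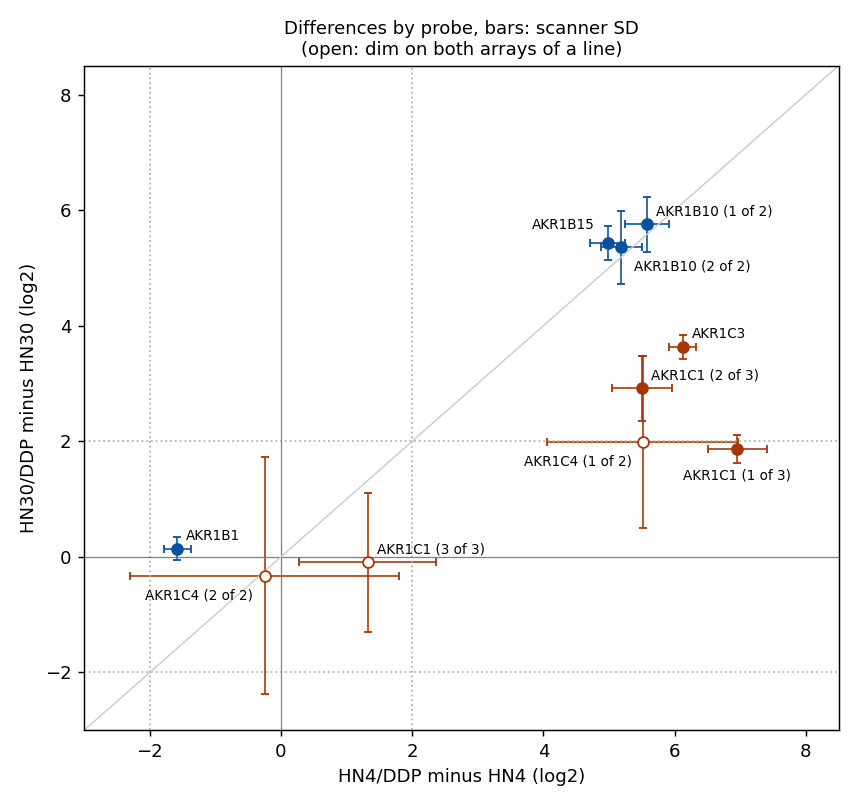
Log2 difference of each probe in HN4/DDP (horizontal axis) and in HN30/DDP (vertical axis), with bars of 1 scanner SD, AKR1B probes in blue, AKR1C probes in brown, and open points where a probe was dim on both arrays of a line; dotted lines mark the threshold of 2 and the grey diagonal marks equal differences. AKR1B15 lies close to the diagonal, AKR1B10 is drawn beside it with an HN30 signal not well above background, the AKR1C probes that gave a signal lie to the right of the diagonal, and AKR1B1 lies at -1.58 and 0.14, the latter -0.28 with scaling to the median.

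The parental lines, which did not enter the choice of members as a contrast but share its arrays, gave no member past the threshold. None of the 5 members that could be compared was higher in HN30 than in HN4, beside 0.904% of 25890 genes, and none was lower, beside 1.9%. AKR1B1 differed by -1.01 (HN30 minus HN4, scanner SD 0.20) and AKR1C1 by 1.69 by the first probe (scanner SD 0.47), at least 2.42-fold, and both would be counted at a threshold of 1. They fall short of 1 under some alternatives, AKR1B1 at -0.91 with scaling to the median and AKR1C1 at 0.51 with normexp, and the second AKR1C1 probe was dim on both arrays. AKR1B10 was dim in HN30 and faint in HN4, with no fold between them by the first probe and a difference of -1.17, at least 1.12-fold, by the second.

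Between the resistant lines, the AKR1C genes were lower in HN30/DDP than in HN4/DDP. AKR1C1 differed by -3.39 (scanner SD 0.21), 10.5-fold, AKR1C3 by -2.85 (scanner SD 0.20), 7.19-fold, and AKR1C4 by -3.42 (scanner SD 0.36), at least 10.6-fold. The second AKR1C4 probe was dim on both arrays, and with normexp the first gave -1.55. By the main rule 3 of 6 members were lower, beside 2.63% of 28729 genes, and none of the 6 higher, beside 5.68%. Only 2 were lower, without AKR1C4, under normexp, under the mean of all probes and with a signal well above background required on both arrays, where 240, 681 and 389 genes in all were lower instead of 756. AKR1B10 differed by -0.35 by the first probe (scanner SD 0.20) and by -1.01 by the second (scanner SD 0.20), and AKR1B1 by 0.71. AKR1B15 differed by 0.24, and by -0.12 with scaling to the median. This comparison shares its arrays with those that chose the members, so it is a description as well.

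The members lie in 2 clusters. AKR1B1, AKR1B10 and AKR1B15 are on chromosome 7, AKR1B1 on the minus strand and the others on the plus strand, and AKR1C1, AKR1C3 and AKR1C4 are on the plus strand of chromosome 10. On chromosome 10, 19 genes with a probe within 500 kb were measured in the HN4 pair. Of these 1 was higher, AKR1C8P, beside 3.61% of all genes measured, and none of the 19 lower, beside 2.2%. Their median difference was -0.10, beside -0.08 over all genes measured. In the HN30 pair 17 were measured, and none of the 17 was higher, beside 8.37% of all genes measured. The noncoding LINC00704 was the only 1 lower (-5.42, scanner SD 0.23), beside 2.75%. The median was -0.15, beside 0.06 over all genes measured.

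On chromosome 7, 10 neighbours were measured in the HN4 pair and 9 in the HN30 pair, with medians of -0.21 and -0.31. None of them passed the threshold. The shares of all genes measured, higher and lower, were 3.61% and 2.2% in HN4/DDP and 8.37% and 2.75% in HN30/DDP. The noncoding lnc-AKR1B1-1, named for AKR1B1, was dim on both parental arrays, with differences of 1.92 in HN4/DDP (at least 1.68-fold) and 1.90 in HN30/DDP (at least 2.61-fold). A transcript without a gene name lay just short of the threshold at -1.999 in HN30/DDP. On the chromosome AKR1B1, at -1.58 in HN4/DDP, lies between lnc-AKR1B1-1 and AKR1B10.

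**Figure D3:**
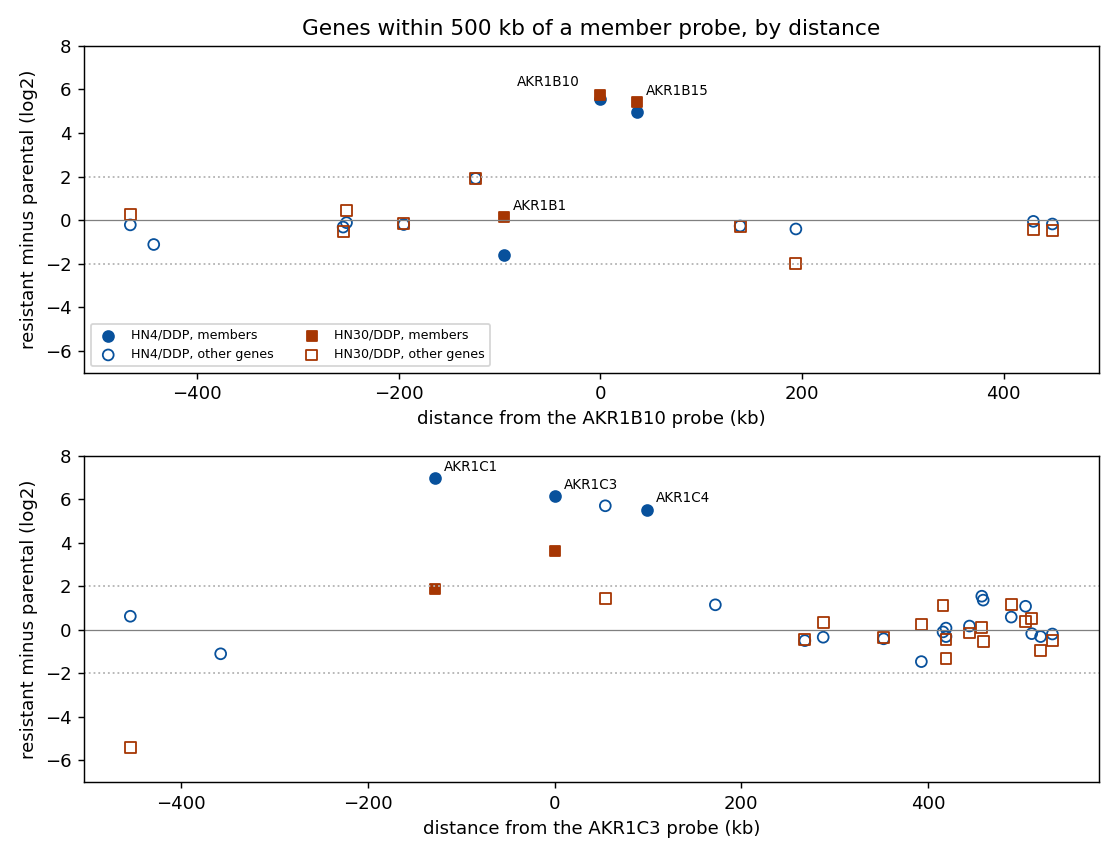
Log2 difference between resistant and parental cells of members (filled) and of other genes within 500 kb (open), drawn if 1 or both arrays of the pair gave a signal well above background, against distance from the AKR1B10 probe (upper panel) and the AKR1C3 probe (lower panel) in kb; circles are HN4/DDP, squares HN30/DDP, dotted lines the threshold of 2. AKR1B10, AKR1B15 and the AKR1C genes stand above neighbours whose differences mostly lie between -2 and 2, the open circle at 5.69 is AKR1C8P, and AKR1B1 lies at -1.58 and 0.14 (-0.28 with scaling to the median).

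RefSeq promoter windows were matched for 5 of the 7 members, with 7 windows. Letters of 5 motifs were searched on both strands: TGACNNNGC, the core of the antioxidant response element; TGACGTCA, the cyclic AMP response element; TGACG, which TGACGTCA contains; TGANTCA, the AP-1 element; and TGGAAA, the core of the osmotic response element. None of these letters was found in the windows of AKR1C1, AKR1C2, AKR1C3 and AKR1C4. The only match was CGTCA, which is TGACG on the minus strand, at bases 7 to 11 of the second AKR1B1 window (chr7:134459190-134459489, minus strand, GRCh38.p14). Of all 35116 windows of this length, 13.3% held TGACNNNGC, 1.85% TGACGTCA, 24.6% TGACG, 7.71% TGANTCA and 20.7% TGGAAA. The AKR1C windows were poor in G and C, from 33.7% to 41.3%, and those of AKR1B1 held 68.7% and 54.3%, beside a median of 58.7% over all windows. These counts describe the letters of short windows and say nothing of elements elsewhere.

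Of 10 other genes of the aldo-keto reductase superfamily, 8 were measured in the HN4 pair and 7 in the HN30 pair. Of these, AKR1C8P alone was higher in HN4/DDP, beside 3.61% of all genes measured, and none in HN30/DDP, beside 8.37%. None was lower in either line, beside 2.2% and 2.75%. AKR1C8P is a pseudogene inside the AKR1C cluster whose transcript RefSeq lists as AKR1C8. By its brighter probe the level was -5.80 in HN4 and -0.11 in HN4/DDP, and -4.84 in HN30 and -3.40 in HN30/DDP, with both parental signals dim. The differences were 5.69 (scanner SD 0.66), at least 25.2-fold, and 1.44 (scanner SD 0.42), at least 2.33-fold. With normexp they were 2.85 and 0.27, and with the mean of all probes 2.72 and 0.56, which are smaller folds than these. Because both parental signals of AKR1C8P were dim, the size of the gap between its differences in the 2 lines is not known. Its other probe was not well above background on any array.

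The rest of the superfamily moved less. AKR1A1, which reduces many common aldehydes, differed by 1.20 in HN4/DDP and 0.07 in HN30/DDP, or -0.35 there with scaling to the median. The AKR7 genes AKR7A2, AKR7A3 and AKR7L, whose family is known for reducing aflatoxin aldehydes, differed by -0.51, -0.42 and -0.43 in HN4/DDP and -0.51, -0.62 and -0.50 in HN30/DDP. The HN30/DDP values were -0.93, -1.03 and -0.92 with scaling to the median, and -0.03, -0.41 and -0.16 with quantile normalization. The potassium channel subunits KCNAB2 and KCNAB3 differed by -0.64 and -0.80, and by -0.27 and -0.35, and a second KCNAB2 probe gave -1.56 and -0.74. KCNAB1 was well above background in HN4/DDP alone, and AKR1D1, a bile acid enzyme, and AKR1E2 on no array. The median over the list was -0.42 in HN4/DDP and -0.35 in HN30/DDP, beside 5.55 and 3.63 over the members and -0.08 and 0.06 over all genes measured.

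Of the 9 genes listed as regulators of the members, 8 were measured, and none of the 8 passed the threshold in either line. Over all genes measured 3.61% were higher and 2.2% lower in HN4/DDP, and 8.37% and 2.75% in HN30/DDP. With 8 genes a count of 0 lies near those shares. NFE2L2, which encodes NRF2, was read by a probe that was not well above background on any array. KEAP1, which marks NRF2 for breakdown, differed by -0.19 (HN4/DDP) and -1.22 (HN30/DDP), and CUL3, its ubiquitin ligase partner, by -1.01 and -0.77, the latter -0.16 with the mean of all probes. SQSTM1, which sequesters KEAP1, differed by 0.93 in HN4/DDP and 0.17 in HN30/DDP, or -0.25 there with scaling to the median. Of the small MAF partners of NRF2, MAFF differed by 0.84 and 0.85, MAFG by 0.67 and 0.24 and MAFK by -0.66 and 0.38. With scaling to the median MAFG and MAFK in HN30/DDP turned to -0.18 and -0.04. BACH1, a repressor at the same elements, differed by -0.32 and 0.32, and the latter turned to -0.10 with that scaling and to -0.30 with the mean of all probes. NFAT5, the osmotic stress factor that activates AKR1B1, differed by -1.13 in HN4/DDP and 1.15 in HN30/DDP.

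Among 31 measured NRF2 target genes other than the members, 5 were higher in HN4/DDP and 2 in the other line, beside 3.61% and 8.37% of all genes measured, and none was lower in either, beside 2.2% and 2.75%. Those of HN4/DDP were HMOX1 (2.72), the transporter ABCC2 (6.47), the glutathione peroxidase GPX2 (3.13), CYP4F11 (2.50) and the noncoding LOC344887 (7.17). Those of HN30/DDP were ALDH3A1 (2.35) and LOC344887 (4.72). For LOC344887, dim on both parental arrays, the folds were at least 55.5 in HN4/DDP and at least 5.33 in HN30/DDP. The list median was 0.41 in HN4/DDP and 0.01 in HN30/DDP. In HN4/DDP 22 of the 31 differences were positive, 11 lay above 1 and 1 below -1, beside 11840, 2500 and 2322 of the 26853 genes measured. In HN30/DDP the counts were 17, 6 and 2 of 31, beside 14978, 5605 and 3756 of 28330. Several of the genes given by name for these short counts were named after their values had been seen.

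The lists of enzymes and pathways around the members gave few counts, to be set beside the same shares of all genes. Of 16 carbonyl and quinone reductases, none was higher in either line and TP53I3 was lower in HN30/DDP (-2.06), with medians of 0.09 and -0.32. Of 18 aldehyde dehydrogenases, which oxidise the aldehydes that these reductases reduce, ALDH1L1, dim on both parental arrays, was higher in HN4/DDP (3.61, at least 3.54-fold) and HN30/DDP (3.42, at least 2.52-fold) and ALDH3A1 in HN30/DDP, with medians of 0.09 and 0.01. Of 21 steroid genes measured in the HN4 pair, HSD3B1 was higher (3.18, at least 4.11-fold). Of 22 in the HN30 pair, HSD17B6, HSD11B1 (2.91) and the sulfotransferase SULT2B1 (4.15) were higher. The medians were -0.01 and -0.09. HSD11B1 was dim in HN30 and stood at -4.01 in HN30/DDP, beside a lowest level well above background of -4.63 in HN30. At that bound its rise did not pass the threshold.

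For the prostaglandin genes, the cyclooxygenase PTGS1, which makes the precursor that AKR1C3 uses, was higher in both lines, by 3.70 in HN4/DDP (13.0-fold, scanner SD 0.25) and 5.43 in HN30/DDP (43.3-fold, scanner SD 0.32). Of 14 measured in the HN4 pair, PTGS1 was the only one higher, and the receptor PTGER2, dim in HN4/DDP, was lower (-3.04, at least 2.44-fold). Of 16 in the HN30 pair, PTGER1 (2.52) was also higher and the thromboxane synthase TBXAS1 was lower (-2.28). PTGER1 was dim in HN30 and stood at -4.09 in HN30/DDP, beside a lowest level well above background of -4.63 in HN30. At that bound its rise did not pass the threshold. The list medians were -0.03 and 0.21, the latter -0.08 with dim signals at their bound.

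Of 21 retinoid genes measured in the HN4 pair, the dehydrogenase DHRS9 (8.72, at least 106-fold) and the binding protein CRABP2 (4.75) were higher and CYP26A1, which clears retinoic acid, was lower (-2.33). With normexp DHRS9 was at 4.91, a smaller fold than that bound. Of 22 in the HN30 pair, CRABP2 (2.22) and RDH12 (2.73, at least 1.33-fold) were higher and none was lower. The list medians were 0.11 and 0.56. Of the polyol and osmotic genes around AKR1B1, none of 12 passed the threshold in HN4/DDP, while in HN30/DDP the betaine transporter SLC6A12 was higher (4.91, at least 16.2-fold) and the fructokinase KHK lower (-2.61) among 13, with medians of -0.38 and -0.18. Of the genes of these enzyme, pathway and NRF2 lists followed through the alternatives, ALDH1L1, HSD3B1, PTGER2, RDH12, TP53I3, TBXAS1, CYP26A1 and KHK, and CRABP2 and LOC344887 in HN30/DDP, came below the threshold under 1 or more of them.

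**Figure D4:**
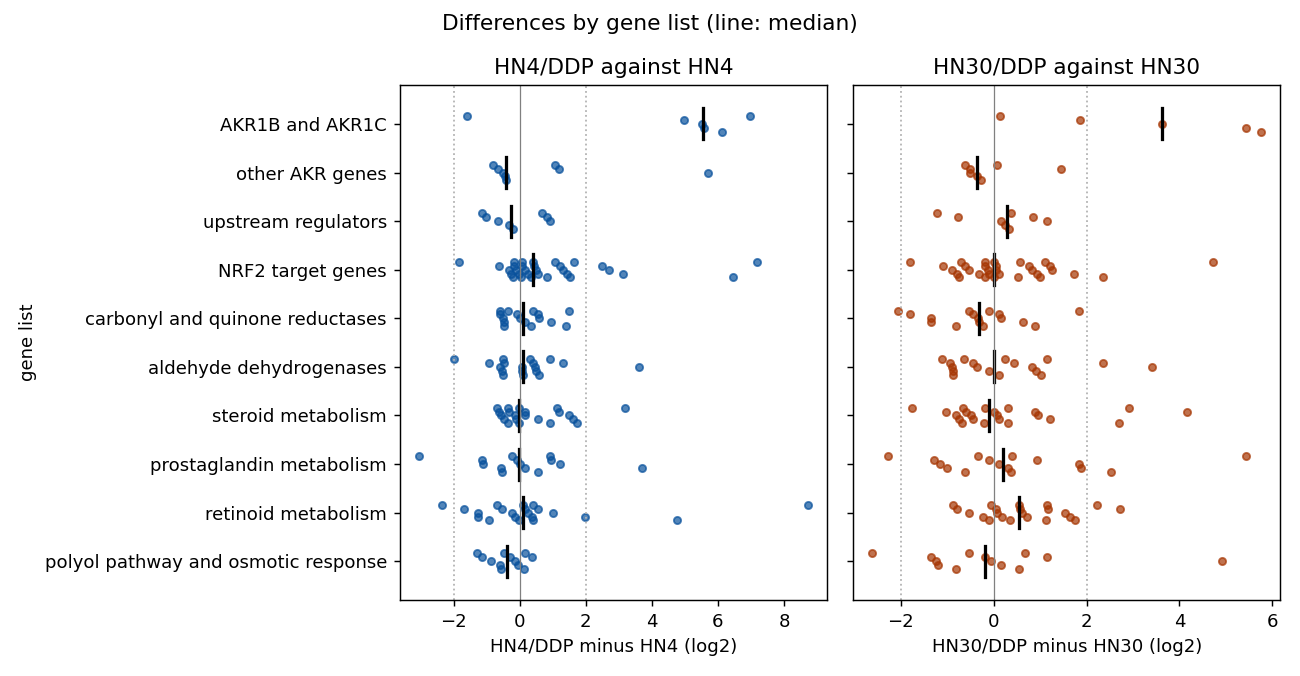
Log2 difference of each measured gene by list, HN4/DDP against HN4 (left panel) and HN30/DDP against HN30 (right panel), 1 point per gene, with a black line at the median of the list and dotted lines at the threshold of 2; the vertical spread of points has no meaning. The members have medians of 5.55 and 3.63 with AKR1B1 at -1.58 and 0.14 (-0.28 with scaling to the median), and the other lists drawn, without the marker lists, have medians between -0.42 and 0.56.

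The genes whose 4 levels, centred on their own mean, lay nearest to those of a member were found by Euclidean distance over the 4 arrays. The search covered 16157 of the 43305 genes with values. A gene dim in HN4/DDP or in HN30/DDP could not enter it, while a dim parental signal shut no gene out. The pool was thus limited by the arrays on which most members were brighter. Nearest to AKR1B1 were CLDN1 (0.147), a tight junction protein, FAM129A (0.154) and TMEM81 (0.197). For AKR1C1 they were GALNT5 (0.857), which starts O-glycans on mucins, the kallikrein KLK5 (0.895) and AKR1C8P. KLK5, like AKR1C1, was dim in HN4. AKR1C8P was dim on both parental arrays, so its distance is not given. The nearest to AKR1B10 (EDN2, which encodes an endothelin, the mucin MUC19 and the kallikrein KLK7) and to AKR1C3 (the transcription factor CREB5, FOXS1 and MYO1A) were all dim on both parental arrays, so no distance is given. With normexp EDN2 differed by 2.34 and 1.90, beside 3.55 and 3.28 for AKR1B10, and CREB5 by 2.76 and 0.60, beside 5.61 and 2.99 for AKR1C3. Of the 12, AKR1C8P alone lies in a cluster of the members. With 4 arrays, likeness of this kind is a description of these levels.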

How the data were processed

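Total RNA of 4 cell cultures, 1 per group, was measured on 1 slide read in 1 scan. The authors deposited spot intensities from Agilent Feature Extraction 10.7.1.1 (version from the submitters' processing notes), background-subtracted and detrended within each array, with probe coordinates on hg19. A value table deposited by the authors holds log2 numbers whose column medians are all 4.65. Its scale was found by comparison with the scanner values, its centring is unknown, and it served as an alternative only.

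Control spots and outlier spots were left out (140 to 204 outliers an array, none saturated), spots of a probe were averaged, and the probe with the highest mean stood for its gene. No model was fitted, since 1 array per group leaves no spread within a group. The steps were tested on simulated data. R 4.3.3 with limma 3.58.1 (normexp), Python 3.11.15, numpy 2.4.6, pandas 2.3.3, matplotlib 3.10.9 and Biopython 1.88 were used.

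Members, gene lists and the rule for named genes were chosen with earlier results of these data known. By the rule, all members, other superfamily genes and regulators were named; of each further list, up to 5 genes past the threshold the same way in both lines and the largest rise and fall in each line; neighbours past the threshold within 500 kb, at most 10; and the 3 nearest genes by level to AKR1B1, AKR1B10, AKR1C1 and AKR1C3. Of 56 named genes, 55 were matched to RefSeq (GRCh38.p14), which also gave the promoter sequences. Alternatives changed the background correction, scaling, pseudocount, dim signals, threshold and probe.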

Additional observations from a re-analysis of the deposited data

Results flagged for a closer look

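Some of the genes named by the rule in the processing notes differed in opposite directions in the 2 lines and by more than 1 between them, with a signal well above background in each pair of arrays, each on 1 array per condition, and these differences between lines were not tested. Values are log2 differences in HN4/DDP and then in HN30/DDP. Among the members this was AKR1B1, at -1.58 and 0.14, and with scaling to the median the latter was -0.28, so that the directions no longer opposed. Among the regulators it was MAFK, at -0.66 and 0.38 (-0.04 with scaling to the median), and NFAT5, at -1.13 and 1.15. Of the pathway lists it was the reductase TP53I3, at 1.49 and -2.06, and the retinoic acid hydroxylase CYP26A1, at -2.33 and 1.65. Of the markers it was KRT6A, at 3.32 and -8.44, and the endothelial PECAM1, at -2.88 and 1.1. KRT6A was dim in HN30/DDP, so its fall there is at least 183-fold, and PECAM1 was dim in HN4/DDP and HN30. The neighbour LINC00704 stood at 0.62 and -5.42. Of the genes nearest to AKR1B1 by level, FAM129A stood at -1.45 and 0.30 and TMEM81 at -1.37 and 0.31, and with scaling to the median these HN30/DDP values were -0.12 and -0.10.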

How the results depend on the processing

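Each resistant array was set against its own parental array, but no model with a term for the line was fitted. Leaving out replicates was not possible because each group has only replicate 1. A block for slide or scan was not possible either, with 1 slide and 1 scan. Of 99 counts of members under the alternatives, 95 equalled the main count or differed from it by a factor of 1.5 or less. The others were 3 members higher in HN4/DDP with a signal well above background on both arrays, and, at a threshold of 1, 1 lower in HN4/DDP (AKR1B1), 1 higher in HN30 than in HN4 (AKR1C1) and 1 lower (AKR1B1). Several main counts were 0, where agreement means another 0, and a count of 2 in place of 3 lay within the factor. Of 192 member differences, 144 moved by less than the scanner SD, and no called difference changed sign. Some of the 144 could not move, such as those under the mean of all probes for a member with 1 probe.

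The normexp background correction gave the lowest difference of each member in HN4/DDP: AKR1C4 was 1.82 there, below the threshold, AKR1B10 3.55 in place of 5.58, AKR1B15 3.47 in place of 4.98, AKR1C1 4.46 in place of 6.96 and AKR1C3 5.61 in place of 6.13. In HN30/DDP it gave 3.28 for AKR1B10, 3.61 for AKR1B15 and 2.99 for AKR1C3. AKR1C1 in HN30/DDP lay between 0.96 and 1.87 and AKR1B1 there between -0.28 and 0.72. Scaling to the median moved the median of all genes in HN30/DDP from -0.07 to -0.49. The share of higher among all calls there was 75.3%, and 50.2% with that scaling, 60% with normexp and 59.9% at a threshold of 1. Between the resistant lines it was 68.3%, and 50.9% with scaling to the median, 58.9% with quantile normalization and 58.3% with the deposited values. The cause was not tested. Dim signals limit the folds of AKR1B10 in HN30/DDP and, by the first probes, of AKR1C1 and AKR1C4 in HN4/DDP to bounds.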
